A study of Mus musculus with 6 samples.

Results

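A set of 10 genes that mark tissue macrophages was followed in the parietal bone of newborn C57BL/6 mice, in 3 OsxCre libraries and 3 libraries labelled OsxCre;Stat3fl/fl. The set was chosen by name, with earlier results of these data known. It holds Csf1r, Cd68, Mrc1, Cd163, Clec10a, C1qa, C1qb, C1qc, Lyz2 and Fcgr3, which are 10 of the 44556 genes in each count table. All 10 passed the filter on low counts that left 15600 genes for testing. Every animal carried the OsxCre transgene, in which the Osterix promoter drives Cre recombinase in osteoblast precursors, and the second genotype also carried a homozygous floxed Stat3 allele. The osteoblast lineage was the intended target of the deletion, whereas macrophages arise from haematopoietic precursors. RNA was taken from whole skull bone, so a level below is an average over bone, marrow, muscle remnants and every other cell of the piece. In such bulk samples, fewer cells of a type and less RNA per cell cannot be told apart. The study's methods give 3 mice per genotype, which were littermates, and the labels do not say which animals shared a litter.

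Macrophages are phagocytes that reside in nearly all tissues, where they clear dead cells, debris and pathogens. Their survival depends on the receptor CSF1R, and they take up cargo through mannose, scavenger and Fc receptors and digest it in lysosomes. Resident macrophages are also the main source of C1q, the recognition molecule of the classical complement pathway. In bone, resident macrophages line the bone surface beside osteoblasts and share precursors with osteoclasts, the cells that resorb bone.

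The tables held 8193651 to 12080044 counts per library, and each of the 3 libraries labelled OsxCre;Stat3fl/fl was smaller than each OsxCre library. Levels are therefore given as CPM, read counts relative to a library size that TMM scaling adjusts for composition. Whole-gene Stat3 was at 149.5, 134.2 and 141.0 CPM in the OsxCre libraries and at 152.5, 154.3 and 154.9 CPM in the others, so that every library labelled OsxCre;Stat3fl/fl lay above every OsxCre library (log2 difference 0.12, edgeR quasi-likelihood test, adjusted p = 0.442). The floxed segment covers only some exons and recombines in some cells, so this count does not check the genotype labels. Over all genes tested, 121 were higher and 75 lower in libraries labelled OsxCre;Stat3fl/fl at an adjusted p under 0.05, and the median log2 difference was -0.0037.

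Among the macrophage genes, C1qb was higher and Clec10a lower in libraries labelled OsxCre;Stat3fl/fl by the edgeR quasi-likelihood test. The remaining 8 did not pass the threshold. So 1 of 10 was called higher, against 0.776% of all genes tested, and 1 of 10 was called lower, against 0.481% of all genes tested. The genotypes did not overlap, meaning that each library of one lay above each library of the other, for 6 of the 10. Cd68, Cd163, C1qb, C1qc and Fcgr3 lay higher without overlap, as did 10.8% of all genes tested. Clec10a alone among the 10 lay lower without overlap, as did 12.2% of all genes tested. The median log2 difference of the 10 genes was 0.24, with 8 above 0 and 2 below. Without any scaling for library size, where the median of all genes was -0.381, Csf1r, Cd68, C1qa, C1qc and Fcgr3 also lay below 0 and C1qb was no longer called.

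**Figure D1:**
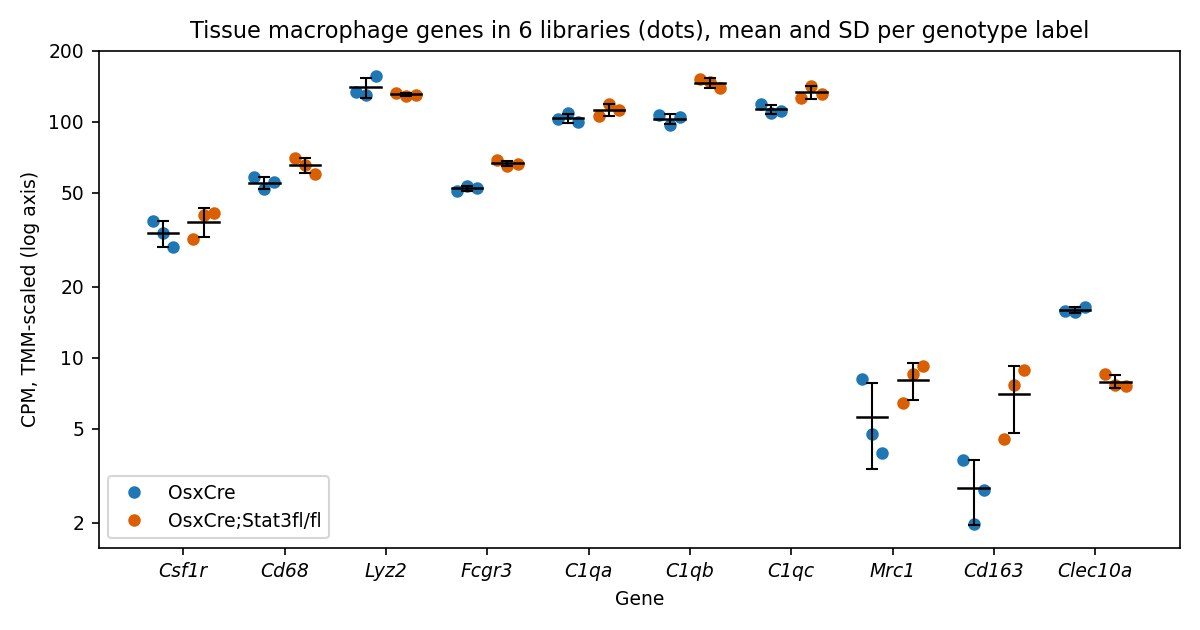
Level of each of the 10 macrophage genes in each of the 6 libraries, in CPM on a log axis; points are libraries, horizontal lines the mean of 3 libraries per genotype and error bars the SD. The genotypes separate without overlap for Clec10a, which is lower in the libraries labelled OsxCre;Stat3fl/fl, and for Cd68, Cd163, C1qb, C1qc and Fcgr3, which are higher.

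Per kilobase of exon, the level of the genes spanned a wide range. In OsxCre libraries the highest was Lyz2, which encodes the lysozyme of macrophages and other myeloid cells, at 107 ± 10.5 CPM per kb (SD, n = 3). C1qa followed at 99.5 ± 4.41 and C1qb at 94.6 ± 4.61 CPM per kb, and the library ranges of these neighbours overlapped. C1qc at 58.4, Cd68 at 44.0, Fcgr3 at 30.0, Clec10a at 8.63 and Csf1r at 6.47 CPM per kb came next, each with a library range that did not meet that of its neighbour. Mrc1 at 0.944 ± 0.377 and Cd163 at 0.626 ± 0.192 CPM per kb were the lowest, and their ranges overlapped. In libraries labelled OsxCre;Stat3fl/fl the order differed by 3 exchanges. C1qb stood first at 134 ± 6.11 CPM per kb, with every library above those of C1qa at 108 ± 6.49, and Lyz2 took the third place at 99.5 ± 1.35. Csf1r at 7.22 lay above Clec10a at 4.28 CPM per kb, and Cd163 at 1.57 lay above Mrc1 at 1.36 CPM per kb, with overlapping ranges for the last pair.

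C1q is assembled from 3 chains, each the product of its own gene, and binds immune complexes and dying cells. The genes lie side by side on chromosome 4 in the GRCm38.p6 assembly, C1qb at 136880126 to 136886200, C1qc at 136889801 to 136892936 and C1qa at 136895916 to 136898844, within 18.7 kb in all. C1qb, the B chain, was counted at 106.8, 97.3 and 104.8 CPM in OsxCre libraries and at 152.2, 146.9 and 139.0 CPM in libraries labelled OsxCre;Stat3fl/fl. The lowest library of the second genotype thus lay above the highest of the first. The log2 difference was 0.50 (SE 0.074, 95% interval 0.33 to 0.67, 1.42-fold), with an adjusted p of 0.0253 by edgeR. The call was lost when any 1 of the 6 libraries was left out (log2 difference 0.46 to 0.54, adjusted p 0.065 to 0.104).

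The other chains did not pass the threshold. C1qc, the C chain, was counted at 118.4, 108.7 and 111.2 CPM against 125.6, 142.4 and 131.6 CPM, again without overlap (log2 difference 0.24, SE 0.077, 95% interval 0.06 to 0.42, edgeR adjusted p = 0.181). C1qa, the A chain, was counted at 102.3, 108.6 and 99.7 CPM against 105.8, 119.3 and 112.2 CPM, and here the genotypes overlapped (log2 difference 0.12, SE 0.076, 95% interval -0.06 to 0.30, edgeR adjusted p = 0.488). Ratios between the chains, for pairs picked after the values were seen, are given as a description. The ratio of C1qa to C1qb in CPM was 0.958, 1.12 and 0.951 in OsxCre libraries and 0.695, 0.812 and 0.807 in libraries labelled OsxCre;Stat3fl/fl. The ratio of C1qc to C1qb was 1.11, 1.12 and 1.06 against 0.825, 0.969 and 0.946, also without overlap, and that of C1qa to C1qc ranged from 0.864 to 0.999 against 0.838 to 0.853. In total 9 ratios between genes were compared by two-sided exact permutation tests of 3 against 3 libraries, which cannot go below p = 0.1. Of the 9 ratios, 8 stood at that limit, these 3 among them (exact p = 0.1, adjusted 0.113). Because the pairs were picked from values already seen, no exact p here or below counts as evidence.

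The stretches upstream of C1qb and C1qc are shown because these neighbouring genes lay higher without overlap, and they are the 250 bases before the start in the RefSeq promoter table (GRCm38.p6, both genes on the minus strand, 5′ to 3′ along the gene). For C1qc that start lies inside the gene span given above, so the window shares its last bases with the span. The C1qb window is chr4:136886201-136886450 and the C1qc window chr4:136892915-136893164. Capitals mark matches to GAGGAA on either strand (TTCCTC as printed on the other strand), a purine-rich motif of the kind bound by PU.1, the transcription factor that directs macrophage development.
C1qb: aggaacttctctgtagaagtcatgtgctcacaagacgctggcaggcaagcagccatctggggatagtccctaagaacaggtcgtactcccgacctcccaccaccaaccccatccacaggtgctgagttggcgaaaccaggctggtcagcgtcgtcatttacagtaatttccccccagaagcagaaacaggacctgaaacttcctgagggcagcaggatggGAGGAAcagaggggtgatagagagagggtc
C1qc: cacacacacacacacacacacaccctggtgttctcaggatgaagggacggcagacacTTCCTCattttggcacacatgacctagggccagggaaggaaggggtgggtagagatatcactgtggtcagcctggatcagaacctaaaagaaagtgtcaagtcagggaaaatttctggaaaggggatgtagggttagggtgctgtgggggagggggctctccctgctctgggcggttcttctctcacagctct
Each window held 1 such match, and at least 1 match was present in 23.3% of all 32851 RefSeq promoter windows of this length. The C1qb match begins 30 bases before the start and the C1qc match 193 bases before it. Promoter sequences were at hand for 7 of the 10 genes, all but Clec10a, C1qa and Csf1r, and the motif was found upstream of C1qb, C1qc, Mrc1, Cd68 and Fcgr3 and not in the windows of Cd163 and Lyz2. The STAT-type palindrome TTCNNNGAA, which reads alike on both strands and was present in 7.02% of all promoter windows, had no match in the windows of the 7 genes.

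Partners of C1q in the classical pathway showed no call. C1ra and C1s1 (C1s in the tables) encode the proteases that complete the C1 complex, Serping1 their inhibitor, and C2, C3 and C4b the components cleaved downstream. Of these 6 genes, 0 passed the adjusted threshold in either direction by edgeR, 2 had an unadjusted p under 0.05 on the higher side, and DESeq2 and limma-voom each called 0. Serping1, the most counted, stood at 162.4, 127.5 and 138.3 CPM in OsxCre libraries and at 167.0, 184.7 and 200.4 CPM in libraries labelled OsxCre;Stat3fl/fl (log2 difference 0.37, edgeR adjusted p = 0.164). Its genotypes did not overlap, whereas those of the other 5 genes did.

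Clec10a, also called MGL1, is a C-type lectin of macrophages and dendritic cells that binds galactose-type sugars. It lies on chromosome 11 at 70166623 to 70170836 (GRCm38.p6), 30.7 Mb from Stat3 on the same chromosome. Its counts were 167, 158 and 197 in OsxCre libraries and 71, 63 and 65 in libraries labelled OsxCre;Stat3fl/fl. In CPM these were 15.9, 15.6 and 16.5 against 8.50, 7.70 and 7.58, so that the spread within either genotype was small beside the gap between them. The log2 difference was -1.01 (SE 0.128, 95% interval -1.31 to -0.71), which left 0.496 of the OsxCre level, with an adjusted p of 0.0178 by edgeR. The call remained without the first library labelled OsxCre;Stat3fl/fl (adjusted p = 0.0446) and was lost without any other 1 library (log2 difference -1.03 to -0.98, adjusted p up to 0.102).

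Mgl2 is the neighbouring paralogue of Clec10a and encodes a lectin of the same family. Its counts were 57, 52 and 78 against 48, 50 and 36, and in CPM its genotypes overlapped, with a log2 difference of -0.09 (95% interval -0.60 to 0.41, edgeR adjusted p = 0.886). The ratio of Clec10a to Mgl2 in CPM was 2.93, 3.04 and 2.53 in OsxCre libraries and 1.48, 1.26 and 1.81 in libraries labelled OsxCre;Stat3fl/fl (exact p = 0.1, adjusted 0.113). Set against Csf1r, the general marker of the lineage, Clec10a was at 0.418, 0.461 and 0.558 against 0.268, 0.190 and 0.185, without overlap (exact p = 0.1, adjusted 0.113). How reads shared by such paralogues were counted is not given in the sources used here.

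**Figure D2:**
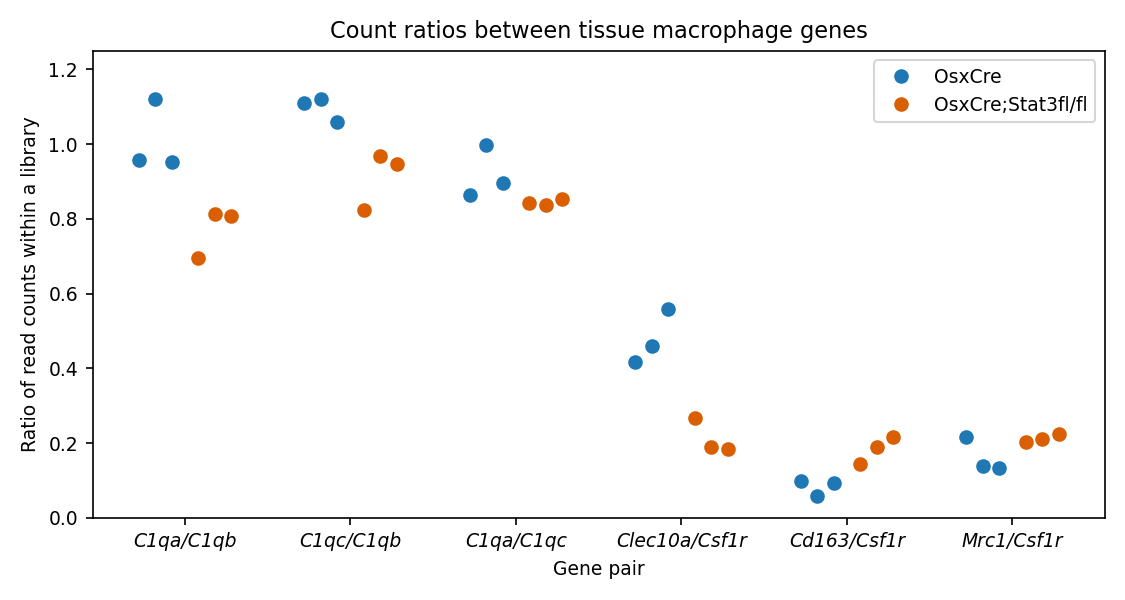
Ratios of read counts (y axis) within each of the 6 libraries for 6 of the 9 pairs of macrophage genes (x axis); points are libraries, coloured by genotype. The genotypes overlap for Mrc1 to Csf1r and separate for the other pairs shown.

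Cd163 and Mrc1 mark macrophages with scavenging roles. CD163 is the receptor that takes up complexes of haemoglobin and haptoglobin. Cd163 was counted 39, 20 and 33 times in OsxCre libraries and 38, 63 and 76 times in the others, or 3.70, 1.98 and 2.76 CPM against 4.55, 7.70 and 8.86 CPM. The genotypes did not overlap, and the first library labelled OsxCre;Stat3fl/fl lay nearest to the OsxCre libraries. The fitted log2 difference was the largest in size among the 10 genes, at 1.32, with a wide interval (SE 0.328, 95% interval 0.56 to 2.08), and the adjusted p was 0.11 by edgeR. DESeq2 gave an adjusted p of 0.0284 and edgeR without a filter on low counts 0.0479, whereas the other 7 alternatives with all libraries gave 0.0548 to 0.271 and the fits without 1 library 0.0947 to 0.295.

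Mrc1 encodes the mannose receptor CD206, an uptake receptor for mannose-bearing glycoproteins. It stood at 8.16, 4.75 and 3.93 CPM against 6.47, 8.56 and 9.21 CPM, and the first OsxCre library lay within the range of the second genotype (log2 difference 0.53, SE 0.299, 95% interval -0.16 to 1.22, edgeR adjusted p = 0.432). Relative to Csf1r, Cd163 was at 0.0975, 0.0583 and 0.0935 in OsxCre libraries and at 0.143, 0.190 and 0.216 in the others (exact p = 0.1, adjusted 0.113). The ratio of Mrc1 to Csf1r overlapped between genotypes (exact p = 0.3), and that of Cd163 to Mrc1 ranged from 0.417 to 0.702 against 0.704 to 0.962 (exact p = 0.1, adjusted 0.113). Mrc2, the paralogue of Mrc1 that is best known from mesenchymal cells, was at 351.1, 317.0 and 331.9 CPM against 266.6, 280.1 and 261.6 CPM (log2 difference -0.31, edgeR adjusted p = 0.113), below in every library of the second genotype.

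Haem from haemoglobin taken up through CD163 is broken down by haem oxygenase. Hmox1, which encodes this enzyme, was the one gene of 5 in haemoglobin and iron handling that passed. Hmox1 stood at 77.4, 56.8 and 71.0 CPM in OsxCre libraries and at 171.7, 200.6 and 239.1 CPM in libraries labelled OsxCre;Stat3fl/fl, a 2.98-fold difference (log2 1.58, SE 0.153, edgeR adjusted p = 0.00785). Hmox1 is induced in many cell types and is not a macrophage marker. Hp, which encodes haptoglobin, lay lower without overlap at 28.4, 23.6 and 51.5 CPM against 18.9, 17.6 and 23.4 CPM, short of the threshold (log2 difference -0.79, edgeR adjusted p = 0.222). Slc40a1, the iron exporter ferroportin, overlapped between genotypes (log2 difference 0.10), as did Blvrb and Hpx.

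Fcgr3 encodes the Fc receptor CD16, which binds antibody-coated targets and is found on macrophages, neutrophils and natural killer cells. It was at 50.7, 53.6 and 52.5 CPM in OsxCre libraries and at 68.8, 65.0 and 66.1 CPM in libraries labelled OsxCre;Stat3fl/fl. Its SD was at most 1.91 CPM in either genotype. The log2 difference of 0.35 (SE 0.070, 95% interval 0.19 to 0.51, 1.28-fold) had an adjusted p of 0.0639 by edgeR and of 0.0478 by DESeq2, and the other alternatives with all libraries gave 0.0613 to 0.859.

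Of the other Fc receptor genes, Fcgr1, Fcgr2b and Fcgr4 encode further antibody receptors. Fcer1g encodes a signalling chain that several Fc receptors share. Among these 4, 0 were called by edgeR, DESeq2 or limma-voom, and 1 had an unadjusted p under 0.05. Fcgr1, Fcgr2b and Fcgr4 lay higher without overlap, as did 10.8% of all genes tested, with log2 differences of 0.58, 0.14 and 0.55. For Fcgr2b the nearest libraries of the genotypes were at 17.4 and 17.7 CPM, and Fcgr4 had only 24 to 33 counts per library. Fcer1g, the most counted, was at 40.3, 39.4 and 42.9 CPM against 44.9, 42.9 and 39.4 CPM (log2 difference 0.05, edgeR adjusted p = 0.811), with overlap.

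Csf1r, the receptor on which macrophages and osteoclasts depend, did not separate the genotypes. It was at 38.0, 33.9 and 29.6 CPM in OsxCre libraries and at 31.7, 40.5 and 41.1 CPM in the others (log2 difference 0.16, SE 0.135, 95% interval -0.15 to 0.47, edgeR adjusted p = 0.612). Of its ligands, 0 of 2 were called by edgeR, DESeq2 or limma-voom, with 0 at an unadjusted p under 0.05. Csf1 was at 87.3, 73.6 and 85.6 CPM against 87.7, 85.0 and 94.7 CPM (log2 difference 0.12, edgeR adjusted p = 0.575), and Il34 differed by 0.14 on the log2 scale with overlap.

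Cd68 and Lyz2 encode lysosomal proteins. Cd68, a glycoprotein of the lysosomal membrane that osteoclasts also carry, was at 58.3, 51.7 and 55.8 CPM against 70.3, 65.8 and 60.3 CPM. The genotypes did not overlap, but the gap between the nearest libraries was small beside the spread, and the adjusted p was 0.221 by edgeR (log2 difference 0.24, SE 0.087, 95% interval 0.04 to 0.45). Lamp1 and Lamp2, lysosomal membrane genes of the same family that all cells use, overlapped between genotypes with log2 differences of -0.05 and 0.18. Lamp1, the most counted of the paralogues examined, was at 439.4, 395.9 and 472.7 CPM against 395.2, 450.3 and 420.6 CPM. Across Mgl2, Mrc2, Lamp1 and Lamp2, edgeR and limma-voom called 0 genes and DESeq2 called 1, Mrc2, and 1 had an unadjusted p under 0.05.

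Lyz2 was at 134.3, 130.2 and 155.9 CPM in OsxCre libraries and at 132.6, 129.2 and 130.0 CPM in the others. The third OsxCre library stood above the remaining 5, which lay within a narrow band, and the log2 difference was -0.10 (SE 0.085, 95% interval -0.30 to 0.10, edgeR adjusted p = 0.609). The ratio of Lyz2 to Cd68 was 2.30, 2.52 and 2.79 against 1.89, 1.96 and 2.16, without overlap (exact p = 0.1, adjusted 0.113). The paralogue Lyz1 had between 3 and 8 counts per library and was not tested.

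**Figure D3:**
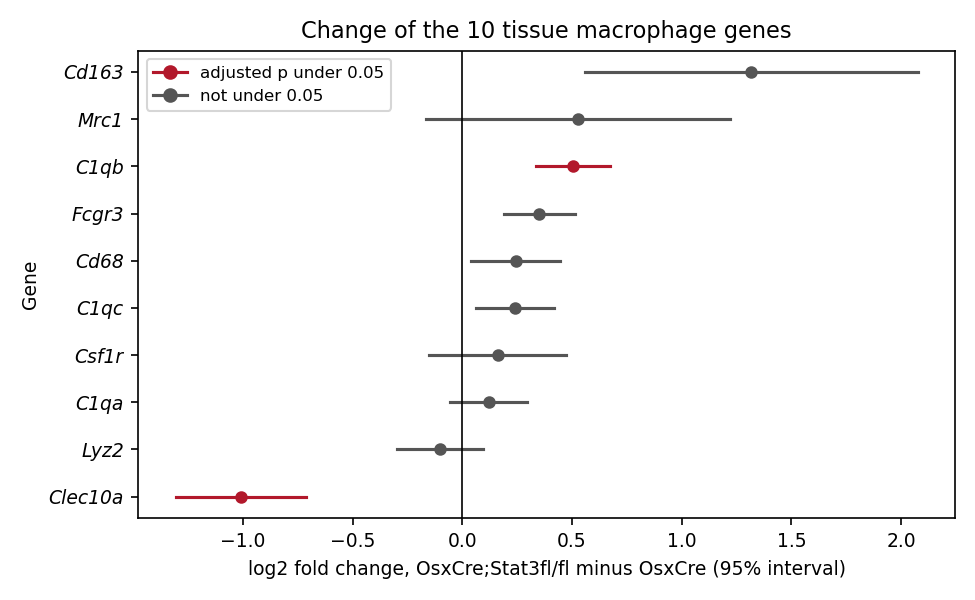
Fitted log2 difference between genotypes (libraries labelled OsxCre;Stat3fl/fl minus OsxCre) for the 10 macrophage genes, with 95% intervals from edgeR. C1qb at 0.50 and Clec10a at -1.01 passed the adjusted threshold; the intervals of Csf1r, Mrc1, C1qa and Lyz2 include 0.

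Summed over the 10 genes, the level was 636.4, 606.3 and 632.7 CPM in OsxCre libraries and 706.5, 733.2 and 706.0 CPM in libraries labelled OsxCre;Stat3fl/fl, without overlap. Most of the sum came from few genes. The 3 C1q chains and Lyz2 each supplied between 15% and 24.6% of it in every library, and Cd163, Mrc1 and Clec10a together supplied less than any other single gene. C1qb supplied 16.8%, 16.0% and 16.6% of the sum in OsxCre libraries and 19.7% to 21.5% in the others, whereas Lyz2 supplied 21.1%, 21.5% and 24.6% against 18.8%, 17.6% and 18.4%. Over the 6 libraries, Clec10a ran opposite to 8 of the 9 other genes, with a Pearson r from -0.965 with Fcgr3 to -0.527 with Csf1r and 0.561 with Lyz2. Csf1r and Mrc1 were at r = 0.896 and C1qb and Fcgr3 at r = 0.952. These correlations are descriptions over 6 libraries that share their genotype difference. The genes whose log2 CPM followed the mean of the 10 most closely, among 12164 genes with a mean of at least 5 CPM, were Zbtb16 (r = 0.996), Postn (0.994), Wdr82 (0.992), Klhdc7a (0.992) and Cyp39a1 (0.988), and the first library labelled OsxCre;Stat3fl/fl lay close to the first OsxCre library in each of them.

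Transcription factors of the lineage were examined as a group of 6. By edgeR, DESeq2 and limma-voom 0 were called in either direction, with 2 at an unadjusted p under 0.05. Irf8, a factor needed for monocyte and macrophage development, was at 8.92, 11.0 and 9.79 CPM in OsxCre libraries and at 14.0, 15.3 and 16.5 CPM in the others (log2 difference 0.62, SE 0.141, edgeR adjusted p = 0.0861), without overlap. Maf, the most counted, differed by 0.07 on the log2 scale with overlap, and Spi1, which encodes PU.1, by 0.09 with overlap.

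A further list of 25 macrophage genes was mixed in direction. Of these, 23 were tested (Vsig4 and Cd5l were too low), 11 had a log2 difference above 0 and 12 below, and the median was -0.04. Msr1, a scavenger receptor for modified lipoproteins, was the 1 gene that passed, at 11.2, 8.80 and 10.1 CPM against 16.7, 20.5 and 20.1 CPM (log2 difference 0.92, SE 0.148, edgeR adjusted p = 0.0345). The genotypes did not overlap for 8 genes on the higher side, Msr1, Ctss, Siglec1, Lyve1, F13a1, Pf4, Mertk and Lgmn, and for 5 on the lower side, Cbr2, Ms4a7, Cx3cr1, Aif1 and Laptm5. These counts stand beside backgrounds of 10.8% and 12.2% of all genes tested.

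Among those that did not pass, the differences beyond 1.5-fold were in both directions. Ctss, a lysosomal protease, was at 4.08, 4.15 and 4.52 CPM against 6.47, 7.34 and 7.58 CPM (log2 difference 0.74, edgeR adjusted p = 0.103). Siglec1, the sialic acid receptor CD169, was at 8.64, 7.22 and 9.37 CPM against 10.1, 15.5 and 13.7 CPM (log2 difference 0.63, edgeR adjusted p = 0.174). Cbr2, a carbonyl reductase found in some resident macrophages, was at 23.5, 25.8 and 20.5 CPM against 11.0, 17.97 and 13.1 CPM (log2 difference -0.73, edgeR adjusted p = 0.12). Lgmn, the lysosomal protease legumain and the most counted of the list, was at 201.2, 218.5 and 205.6 CPM against 229.6, 247.7 and 239.1 CPM (log2 difference 0.20, edgeR adjusted p = 0.242). DESeq2 called Msr1, Lyve1 and F13a1 higher and Cbr2 lower, and limma-voom called Msr1.

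**Figure D4:**
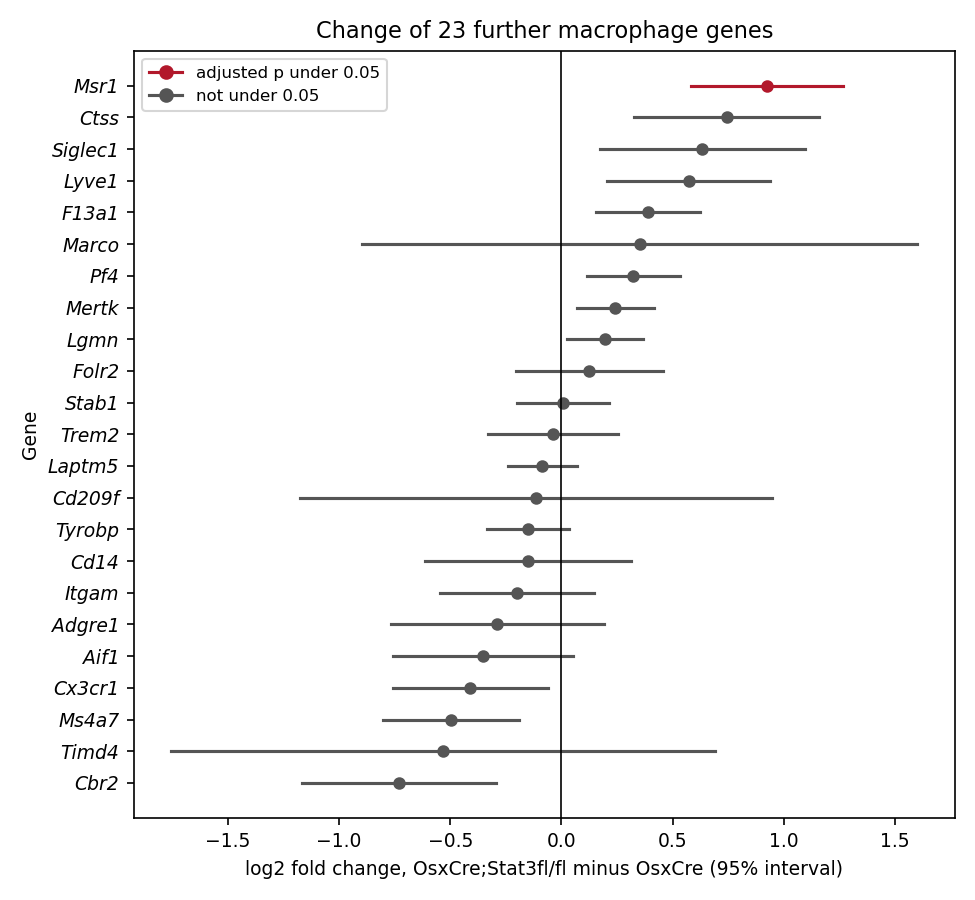
Fitted log2 difference between genotypes (libraries labelled OsxCre;Stat3fl/fl minus OsxCre) for the 23 further macrophage genes tested, with 95% intervals from edgeR. Msr1 at 0.92 passed the adjusted threshold, 11 genes lie above 0 and 12 below.

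Several of the 10 genes are also transcribed by other cells of the tissue, whose markers are given here beside the results, and their part in them was not tested. Neutrophils carry Fcgr3 and Lyz2, and 3 of 9 neutrophil genes tested were called lower by edgeR (Retnlg, S100a9 and Mmp8). Of the 9, 7 had a log2 difference below 0 and 2 above, Mpo at 0.18 and Prtn3 at 0.44, both with overlap. The neutrophil list summed to 315.5 to 531.0 CPM in OsxCre libraries and 133.3 to 219.2 CPM in libraries labelled OsxCre;Stat3fl/fl. The highest neutrophil sum and the highest Lyz2 level were in the same library, the third OsxCre one. Fcgr3, by contrast, lay higher in libraries labelled OsxCre;Stat3fl/fl, where the neutrophil sum was lower. Osteoclasts carry Csf1r and Cd68, and their 10 markers summed to 2374 to 2760 CPM against 2122 to 2882 CPM. Of these markers 0 were called by edgeR, with 2 at an unadjusted p under 0.05, and DESeq2 and limma-voom each called 1, Ocstamp. Monocyte markers summed to 15.6 to 26.2 CPM against 27.3 to 40.7 CPM, without overlap and with 0 of 5 called by edgeR (1 at an unadjusted p under 0.05, 1 by DESeq2 and 0 by limma-voom).

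Microglial markers summed to 232.9 to 293.2 CPM against 227.0 to 242.3 CPM. Of that sum, most came from Tmem119, a gene that osteoblasts also use, while P2ry12, which defines microglia, was at 5.05 CPM on average in OsxCre libraries and at 3.86 CPM in the others. Dendritic cells carry Clec10a, and their 8 markers summed to 18.1 to 22.0 CPM against 19.6 to 26.1 CPM, with Xcr1 at 0 in every library. Most of that sum came from H2-Ab1, H2-Aa and Cd74, the only 3 with enough counts to be tested, and 0 were called. Flt3, the next highest, was at 0.793 CPM on average in OsxCre libraries and at 0.709 CPM in the others. Mast cell markers, by contrast, stood at 257.4 to 306.3 CPM against 360.4 to 410.3 CPM, and 1 of 6 was called higher (Tpsb2). T and NK cell markers summed to less than 5 CPM in every library, with Cd8a at 0 throughout, and B cell markers overlapped at 11.5 to 18.9 against 12.2 to 16.3 CPM.

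Markers of other tissue components are given in the same way. Skeletal muscle markers stood at 19820 to 21410 CPM against 22980 to 33690 CPM and erythroid markers at 2933 to 4779 CPM against 1573 to 2802 CPM, each without overlap. Of the muscle markers 1 of 6 was called higher by edgeR, Myh3, at a mean of 340.7 against 1119 CPM (adjusted p = 0.0204). The sum of osteoblast markers, most of which is Col1a1, overlapped at 14250 to 19210 against 13240 to 16850 CPM. Within that list 1 of 8 was called lower by edgeR, Ibsp, at 1014, 1058 and 929.5 CPM against 608.7, 661.6 and 625.0 CPM (log2 difference -0.66, adjusted p = 0.0213), and Alpl lay lower without overlap (log2 difference -0.54, edgeR adjusted p = 0.0578) and was called by DESeq2. Endothelial markers overlapped at 526.6 to 746.1 against 660.9 to 777.4 CPM. Neuronal markers did not follow the genotype, at 80.5, 362.6 and 76.3 CPM in OsxCre libraries and 293.0, 28.9 and 197.6 CPM in the others.

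**Figure D5:**
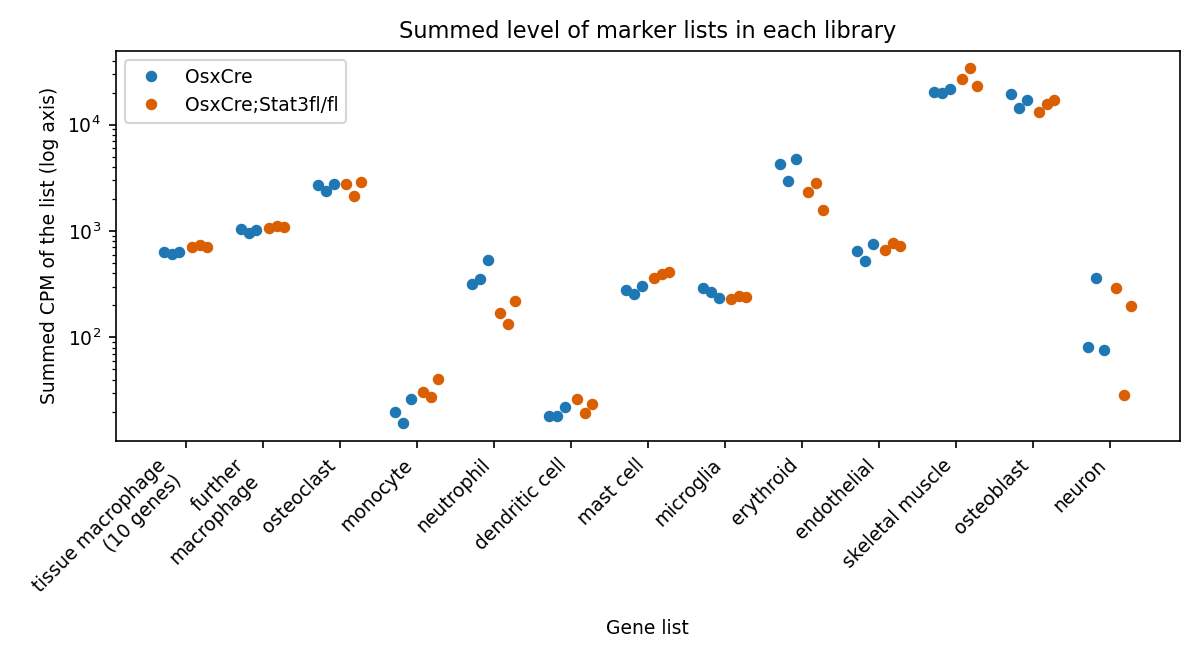
Summed CPM of the 10 macrophage genes and of marker lists of other cell types in each of the 6 libraries, on a log axis; points are libraries, coloured by genotype. The macrophage sum is 606.3 to 636.4 CPM in OsxCre libraries and 706.0 to 733.2 CPM in the others, while the neutrophil sum is lower and the mast cell and monocyte sums higher in libraries labelled OsxCre;Stat3fl/fl.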

How the data were processed

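RNA-seq of parietal bone from newborn mice was analysed from the tables of whole-number read counts per gene that the authors deposited, 1 for each of 6 libraries. The submitters' processing notes name HISAT2 and the GRCm38 build, while the methods of the study name TopHat and mm9; the counting program, its annotation and its use of strand are not given in the sources used here. Genes with enough counts by the edgeR filter (minimum count 10, minimum total 15) were scaled by TMM and tested with the edgeR 4.0.16 quasi-likelihood test in R 4.3.3, two-sided, on genotype alone, and p-values were adjusted by Benjamini-Hochberg over all 15600 genes tested, with a threshold of 0.05. Fold changes are fitted log2 values. CPM are normalised counts, ± is the SD of 3 libraries, and single ratios were compared by exact permutation tests, adjusted over 9 ratios. Exonic lengths came from the GENCODE vM1 annotation. DESeq2 1.42.0 and limma-voom (limma 3.58.1), other scalings and filters, a replicate block and leaving out each library were tried as alternatives. A count of 3, taken as the floor, equals 0.248 to 0.366 CPM. The procedure was tested on simulated data. No pair of libraries of the same genotype agreed within sampling noise. The genes and lists were chosen with earlier results of these data known, and the genes with values printed are the 10 and, of the lists of related genes, those that passed the threshold or were beyond 1.5-fold without overlap and the most counted. Cell type marker lists are given by counts of calls and summed levels. Other genes, and the pairs for the ratios, were chosen after values were seen. 1 gene of the lists is not reported here.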

Additional observations from a re-analysis of the deposited data

How the results depend on the processing

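C1qb was called in 7 of 9 alternatives that kept all libraries, failing without scaling (0.13) and with the replicate block (adjusted p = 0.122), and Clec10a in 8 of 9, failing with the replicate block (adjusted p = 0.106). With the replicate block, 0 genes were called higher and 1 lower over all genes, and 0 of the 10 macrophage genes in either direction. The sources do not tie libraries of the same replicate number, whose deviations from the genotype means correlated at -0.103, -0.524 and -0.077 (none best with its own number). Without any 1 library, genes called higher ranged from 7 to 67 and lower from 5 to 36, macrophage genes higher from 0 to 0 and lower from 0 to 1, and their median log2 difference from 0.203 to 0.285. C1qb lost its call in each of these 6 fits (log2 difference 0.46 to 0.54, adjusted p 0.065 to 0.104), and Clec10a kept its call only without OsxCre;Stat3fl/fl replicate 1 (log2 difference -1.06 to -0.98, adjusted p 0.0446 to 0.102), with 2 libraries in an arm. Without scaling, the median of all genes moved to -0.381, since the libraries of the second genotype are smaller, 5451 genes were called lower and 121 higher, macrophage genes called were 0 higher and 2 lower (Clec10a and Lyz2) with a median of -0.137, and Csf1r (-0.21), Cd68 (-0.14), C1qa (-0.26), C1qc (-0.14) and Fcgr3 (-0.026) changed sign, all above the shift of all genes. With library totals, 114 genes were lower beside 111 higher and the macrophage median was 0.196. Without a low-count filter, 250 genes were higher and 178 lower, with 2 macrophage genes higher (C1qb and Cd163). DESeq2 called 304 genes higher and 235 lower, with 3 macrophage genes higher (C1qb, Cd163 and Fcgr3). The cause of the other changes was not tested. Cd163 had 20 to 76 counts per library, and its 95% interval of 0.56 to 2.08 is the widest among the 10 genes.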
